A study of Apis mellifera with 48 samples.

Results

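Mushroom body gene expression was compared between 12 active drones and 12 active workers of the honey bee (Apis mellifera), all taken at 3 pm. These 24 bees were chosen by the group in their titles, out of 48 bees in the series, and all 24 entered the comparison. The drones were collected shortly before flight and the workers as they got ready to forage, so the bees of both groups were about to leave the hive. The other 24 bees, 12 inactive drones and 12 inactive workers of 9 am, stayed out of the main comparison and served as a separate set of animals. Each library held poly(A) RNA from the mushroom bodies of 1 bee. No genetic alteration or agent is recorded for any group, and the sources used here give no ages of the bees. The bees came from 3 colonies with unrelated queens, each mated naturally. Among the afternoon bees, 2 drones and 5 workers came from colony 1, 2 drones and 5 workers from colony 2, and 8 drones and 2 workers from colony 3. Among the morning bees these numbers were 5 and 5, 1 and 5, and 6 and 2, so the colonies of the drones shifted between the times. Bees of 1 colony share a hive and a queen, and because colony is uneven between the sexes it was a covariate in the tests.

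The mushroom bodies are paired centres of the insect brain that are built largely from Kenyon cells and receive olfactory input and, in bees, strong visual input. They are best known for their part in associative learning and memory. Honey bee drones are males that develop from unfertilised eggs and carry a single set of chromosomes. They leave the hive in the afternoon to seek queens, whereas workers are diploid females that learn the places, scents and colours of flowers. The comparison asks how the mushroom bodies of the sexes differ at the moment when each is ready for its own flight outside the hive.

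Genes are given by the identifiers of the deposited counts, which are not paired there with names. Of the 15314 identifiers, 0 matched the name table at hand, so no gene name, function, position or sequence is given, and markers of Kenyon cells, glia, eye, muscle or fat body could not be checked. In dissected tissue, fewer cells of a type and less RNA per cell cannot be told apart. Gene reads ran from 9.03 to 15.3 M per library in drones and from 6.85 to 27.1 M in workers. Expression is given as CPM, which is reads of a gene per M (mega) gene reads of its library after TMM scaling. A gene was called when its adjusted p (edgeR quasi-likelihood test, two-sided, colony as covariate, Benjamini-Hochberg over all genes tested) was below 0.05.

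Active drones and active workers differed in many genes, mostly by small amounts. Of 10648 genes tested, 3726 were called, which is 35% of them, with 1791 (16.8%) higher in drones and 1935 (18.2%) higher in workers. The difference was less than 1.5-fold in 2107 of the called genes. The median difference was 1.59-fold for genes higher in drones and 1.36-fold for genes higher in workers. Large differences lay mostly on the drone side. At least 2-fold differences, 5.83% of the genes tested, numbered 455 higher in drones and 166 higher in workers. Differences of at least 4-fold numbered 87 and 26, and of at least 16-fold 20 and 6. When the test itself asked for more than a 2-fold difference (edgeR glmTreat, adjusted p below 0.05), 78 genes passed (0.733%), 56 higher in drones and 22 higher in workers. Without colony 3, which leaves 4 drones and 10 workers, 2444 genes were called and 49 passed the 2-fold test.

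Along the first principal component of the 24 libraries (30.6% of the total variance), 94.1% of the variation was between the sexes. All drones lay on one side, from -47.1 to -13.6, and all workers on the other, from 24.5 to 48.3. Within their own sex the libraries agreed closely, with median Spearman correlations across genes of 0.963 to 0.982.

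The direction of the difference changed with abundance. Among called genes with a mean of less than 1 CPM (log2 CPM below 0), 12 were higher in drones and 1 in workers. Between log2 CPM of 0 and 2 the numbers were 248 and 104, and between 2 and 4 they were 513 and 254. Between 4 and 6 the directions were nearly even, at 560 and 582. The order turned above that, with 322 higher in drones and 642 higher in workers between 6 and 8, and 136 and 352 at 8 or more. The share of genes called rose from 11.5% in the lowest class to 18.7%, 26.9%, 36.3%, 51.3% and 63.4% in the highest. Weakly expressed genes were called only at large differences, with a median of 2.86-fold in the lowest class and 1.36-fold in the highest, and the median standard error fell from 0.42 to 0.09 on the log2 scale. Under every setting tried, including other scalings, thinning to equal depth and the omission of single libraries or colonies, 65.5% to 73.3% of the genes called below log2 CPM of 4 were higher in drones, against 28.1% to 38% of those at 6 or more.

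**Figure D1:**
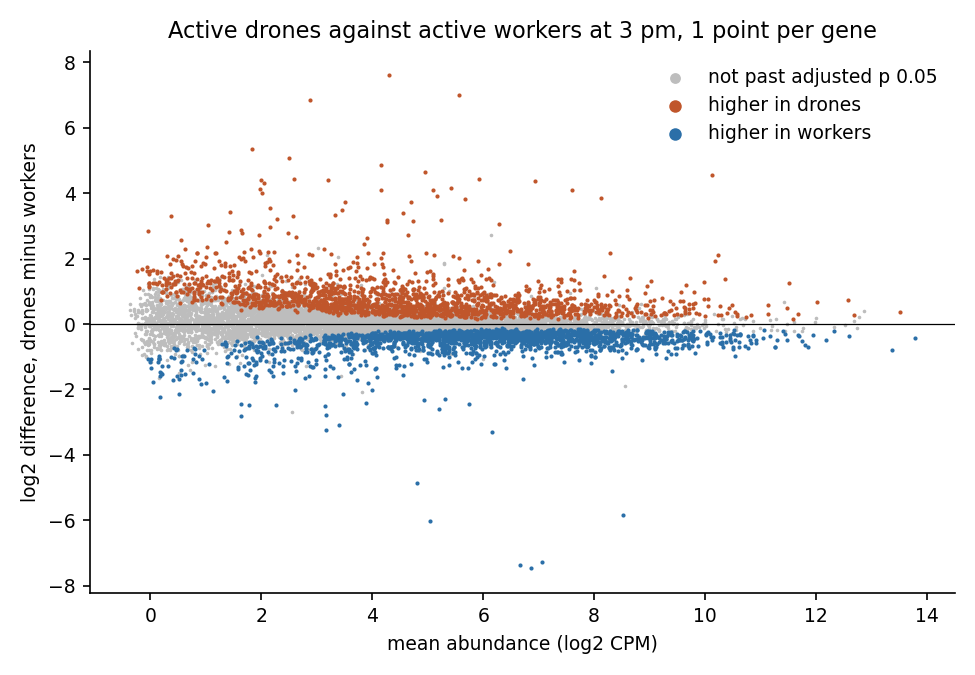
Log2 difference between active drones and active workers (vertical axis, drones minus workers) against mean abundance (horizontal axis, log2 CPM) for 10648 genes, 1 point per gene. Orange points were called higher in drones (1791), blue points higher in workers (1935), and grey points were not called; orange prevails at low abundance and blue at high abundance.

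Genes higher in workers took up more of the RNA than genes higher in drones. The genes called higher in workers held 41.8% to 46.9% of all gene reads in single workers, with a median of 44.7%, and 30.7% to 36.8% in single drones, with a median of 34.4%. Those called higher in drones held 20.7% to 25.7% of reads in drones, with a median of 22.2%, and 13.5% to 15.8% in workers, with a median of 14.6%. The same bees had chosen these genes, so the shares are a description. The 56 genes past the 2-fold test on the drone side were minor by amount, with a median share of 0.410% in drones and 0.0381% in workers. The 22 on the worker side had medians of 0.0310% in drones and 0.164% in workers, and 1 worker reached 0.909%.

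More genes were detected in drones once depth was equal. With every library thinned to 6.85 M gene reads, the smallest total of the 24, drones had reads in 12103 to 12409 genes, with a median of 12224. Workers had reads in 11717 to 12177, with a median of 12070.5. The means differed by 196 genes (two-sided permutation test, n = 12 and 12, p = 1e-05, the smallest these permutations can give; adjusted over 8 library measures 8e-05). Relative to colony means the difference was 133 genes (permutation within colonies, p = 0.00153, adjusted 0.0122). Each colony mean takes in both sexes, which makes this figure smaller than the gap within colonies. It therefore cannot be set against the 196. At their own depths the means were 12502 genes in drones and 12413 in workers, and the difference did not pass (permutation test, adjusted p = 0.549). Gene reads themselves were 12.1 ± 2.31 M in drones and 17.3 ± 6.82 M in workers (permutation test, p = 0.0191, adjusted 0.0763). The shares of reads outside genes (28.8% in drones and 28.3% in workers), of reads with several alignments (2.73% and 2.60%) and of the 100 most abundant genes (29.5% in each) gave differences that did not pass (permutation tests, adjusted p = 0.549, 0.135 and 0.97).

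In 369 genes, 3.47% of those tested, the sexes did not overlap at all. Every drone was above every worker in 141 of them and every worker above every drone in 228, and all 369 were called. A wide gap was not needed for this, as 262 of the 369 differed by less than 2-fold, down to 1.21-fold. In the morning bees 181 of the same 10648 genes (1.7%) had no overlap. Of the 141 and 228 afternoon genes, 27 and 29 were also without overlap, in the same direction, among the morning bees.

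A count was made of genes silent in 1 sex and detected in at least 10 of 12 bees of the other. The number of genes with 0 reads in all 12 workers and reads in at least 10 drones was 0, and the reverse number was also 0. Called genes whose mean reached 10 CPM in 1 sex and stayed under 1 CPM in the other numbered 7 on the drone side and 3 on the worker side.

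Among genes without overlap and with at least 10 CPM in the higher sex, GB48875 and GB50526 showed the largest differences in favour of drones. GB48875 ran from 3.09 CPM over a median of 22.2 to 93.3 CPM in active drones, against 0.399, 1.08 and 2.66 CPM in active workers. The drones spread over a wide range, with drones 2 and 11 close to the workers and drones 1 and 8 highest. Its log2 difference was 4.87 ± 0.59 (SE), or 29.2-fold (edgeR adjusted p = 1.12e-06), and it also passed the 2-fold test (edgeR adjusted p = 5.07e-05).

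GB50526 lay between 40.9 and 186 CPM in active drones, with a median of 78.9, and between 0.906 and 13.7 CPM in active workers, with a median of 3.71. The lowest drone stood well clear of the highest worker. Its log2 difference was 4.15 ± 0.43 (SE), or 17.7-fold (edgeR adjusted p = 2.26e-07). The gap was uneven over the colonies, at 2.95 in colony 1, 3.83 in colony 2 and 6.53 in colony 3, where both workers had about 1 CPM; the test of sex by colony did not pass (edgeR adjusted p = 0.326).

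On the worker side GB43248 and GB53372 led. GB43248 lay between 91.4 and 510 CPM in active workers, with a median of 217, and between 0.185 and 3.29 CPM in active drones, with a median of 1.16. Its log2 difference, drones minus workers, was -7.46 ± 0.37 (SE), or 177-fold (edgeR adjusted p = 5.95e-13). The 5 workers of colony 1 ranged from 202 to 510 CPM and the 5 of colony 2 from 91.4 to 265 CPM, so the workers differed among themselves while the drones stayed near the floor of the measurement.

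GB53372 lay between 9.51 and 170 CPM in active workers, with a median of 35.2, and between 0.0701 and 1.48 CPM in active drones, with a median of 0.459. Workers 1, 2, 5 and 6 had more than 100 CPM and both workers of colony 3 less than 20 CPM. The log2 difference was -6.03 ± 0.56 (SE), or 65.3-fold (edgeR adjusted p = 3.21e-08). For all 4 genes the difference passed in each colony, at an edgeR adjusted p of at most 0.0102. These values came from 1 model of all 24 libraries with a mean per sex and colony. Over all afternoon bees, each of the 4 genes kept its direction and its call whichever of the 24 libraries was left out.

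**Figure D2:**
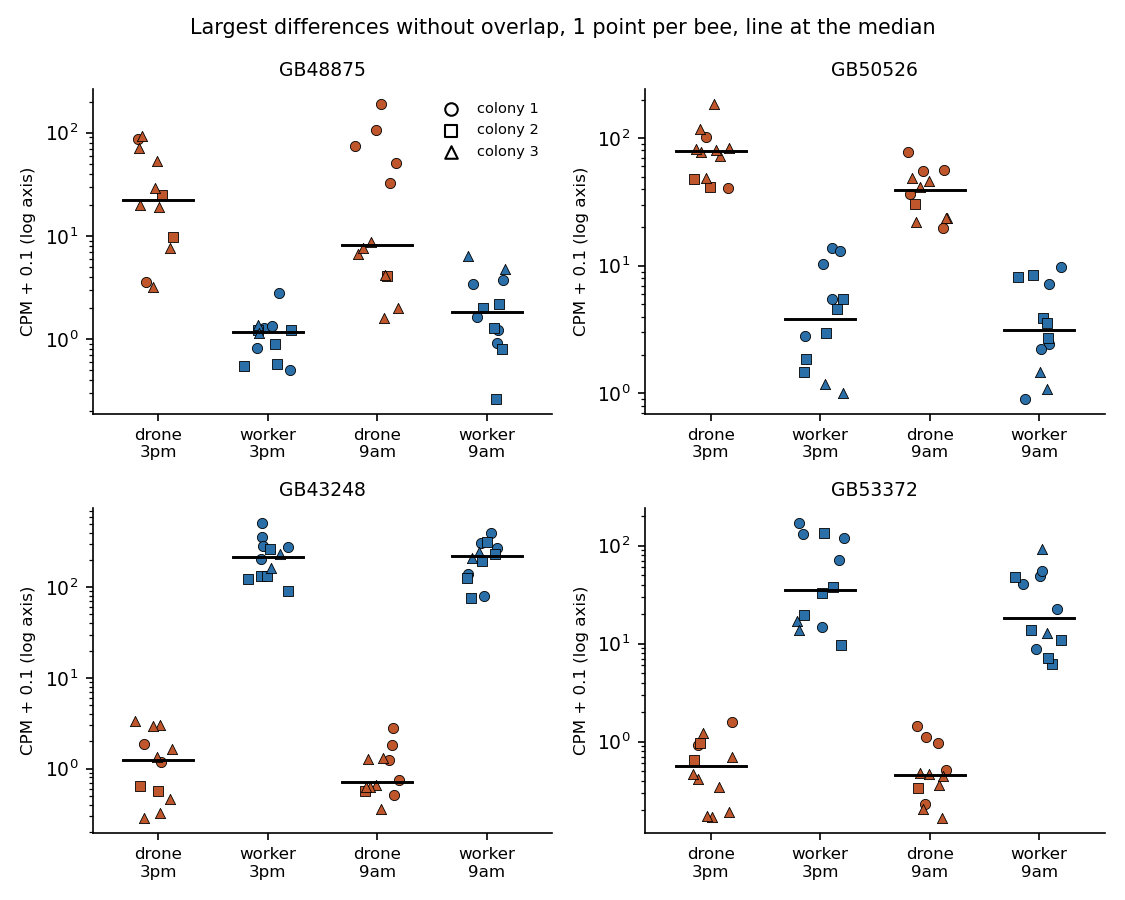
CPM + 0.1 on a log axis for GB48875, GB50526, GB43248 and GB53372 in active and inactive drones (orange) and workers (blue), 1 point per bee, with colonies as symbols and a line at the group median. At 3 pm the lowest drone was above the highest worker in the upper panels and the highest drone below the lowest worker in the lower panels; at 9 am GB48875 overlapped.

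The morning bees, which played no part in the afternoon test, showed most of the same differences. Of the 3726 afternoon genes, 3692 could be tested at 9 am, and 3523 of these (95.4%) pointed the same way there, against 69.3% of genes without an afternoon call. At 9 am 2636 of 10578 genes (24.9%) were called, 1614 higher in drones and 1022 higher in workers. The lists shared 1787 genes in the same direction, which is 48.0% of the afternoon list and 67.8% of the morning list, and 1 gene was called in opposite directions. Shared genes numbered 1023 higher in drones and 764 higher in workers. Afternoon genes higher in drones had a median log2 difference of 0.66 in the afternoon and 0.59 in the morning, with the same sign in 97.9%. Those higher in workers had medians of -0.44 and -0.32, with the same sign in 93.1%. Of the 73 genes past the 2-fold test that could be tested in the morning, 73 kept the sign and 58 were called. Across 10500 genes, which are not independent replicates and share depth, colonies and scaling, the log2 differences of afternoon and morning correlated at 0.80 (Pearson's r) and 0.76 (Spearman's rho).

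The 4 leading genes were called in the morning bees as well. The log2 difference at 9 am was 2.67 ± 0.74 (SE, edgeR adjusted p = 0.00907) for GB48875, where drones ran from 1.51 to 190 CPM and overlapped with workers at 0.163 to 6.31 CPM. In colony 1 its morning drones had 32.6 to 190.5 CPM and the workers 0.808 to 3.59 CPM. The morning drone of colony 2 had 3.95 CPM, and the workers there 0.163 to 2.06 CPM. In colony 3 the morning workers, at 4.62 and 6.31 CPM, lay within the range of the drones, 1.51 to 8.53 CPM. GB50526 differed by 3.68 ± 0.42 (edgeR adjusted p = 1.26e-06), GB43248 by -7.98 ± 0.36 (edgeR adjusted p = 1.56e-13) and GB53372 by -6.40 ± 0.53 (edgeR adjusted p = 1.48e-08), each without overlap. A change of the difference between the times was not detected for any of them (edgeR adjusted p from 0.475 to 0.917).

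A sex difference that changed between 9 am and 3 pm was found for few genes. The test of the change, over all 48 libraries, called 29 of 11167 genes (0.26%), 21 with a difference that was more in favour of drones at 3 pm and 8 with one more in favour of workers. In that model the 21 genes had a median log2 difference of 0.91 at 3 pm and -0.37 at 9 am, and the 8 genes -0.44 and 0.10. The count was 12, 11, 11, 15 and 12 without active drone 2, 5, 6, 8 or 12, and 14, 12, 10, 9 and 9 without active worker 3, 6, 7, 11 or 12. It was 16, 14, 15, 13, 11 and 11 without inactive drone 6, 7, 8, 9, 10 or 12, and 12 and 16 without inactive worker 8 or 9. Without colony 3 it was 0 (950 genes at an unadjusted p below 0.05). DESeq2 called 65 genes and limma-voom 10.

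GB50609 and GB54219 had the lowest p among genes whose difference moved in favour of drones. GB50609 ran from 127 CPM over a median of 1944 to 6001 CPM in active drones and from 139 over 201 to 578 CPM in active workers. Active drone 1, at 159 CPM, lay in the range of the workers, drones 3 and 4, at 134 and 127 CPM, lay just below it, and the other 9 lay above all workers. The log2 difference between the sexes in the 48-library model was 3.00 at 3 pm and -1.17 at 9 am, a change of 4.17 ± 0.67 (SE, edgeR adjusted p = 0.00151). In the morning bees alone it was -0.81 ± 0.38 (edgeR adjusted p = 0.12). In the afternoon bees alone it was 2.12 ± 0.71 (edgeR adjusted p = 0.0226), with 2.36 in colony 1, -1.13 in colony 2 and 4.30 in colony 3 (edgeR adjusted p = 0.0204, 0.349 and 0.00213). The 2 active drones of colony 1 were drone 1, at 159 CPM, and drone 2, at 2225 CPM, against 149 to 420 CPM in its workers. The test of sex by colony did not pass (edgeR adjusted p = 0.192).

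GB54219 followed the same bees. Levels of 314, 336 and 372 CPM put active drones 1, 3 and 4 inside the range of active workers, 304 to 688 CPM, and the other 9 drones had 1329 to 3945 CPM. The log2 difference was 1.77 at 3 pm and -0.33 at 9 am in the 48-library model, a change of 2.10 ± 0.36 (SE, edgeR adjusted p = 0.00223). In the fits of the afternoon and of the morning bees alone the difference was 1.28 ± 0.39 (edgeR adjusted p = 0.0127) and -0.11 ± 0.14 (edgeR adjusted p = 0.636). In colony 1 the afternoon difference was 1.34 and did not pass (edgeR adjusted p = 0.0504). In colony 2, where both drones were in the range of the workers, its afternoon difference was -0.26 (edgeR adjusted p = 0.773), and in colony 3 it was 2.61 (edgeR adjusted p = 0.00201). The test of sex by colony did not pass (edgeR adjusted p = 0.324). Without colony 3 the change did not pass for either gene (edgeR adjusted p = 0.546 for GB50609 and 0.562 for GB54219).

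GB44887 and GB45222 moved in favour of workers. GB44887 had 2.31 to 5.27 CPM in active drones, with a median of 4.40, and 7.07 to 14.7 CPM in active workers, with a median of 10.4. The groups did not overlap, and the afternoon log2 difference was -1.30 ± 0.15 (SE, edgeR adjusted p = 1.03e-06), with -1.23, -1.45 and -1.23 in colonies 1, 2 and 3. At 9 am drones had 2.93 to 10.5 CPM and workers 6.22 to 12.5 CPM, and the difference of -0.44 ± 0.19 did not pass (edgeR adjusted p = 0.0914). The change was -0.94 ± 0.20 in the 48-library model (edgeR adjusted p = 0.0332).

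GB45222 was more even among bees of 1 group. It had 40.6 to 73.5 CPM in active drones, with a median of 59.9, and 92.8 to 140 CPM in active workers, with a median of 110. The afternoon groups did not overlap, at a log2 difference of -0.92 ± 0.09 (SE, edgeR adjusted p = 1.44e-07), while the morning difference of -0.21 ± 0.15 did not pass (edgeR adjusted p = 0.331). The change was -0.70 ± 0.15 (edgeR adjusted p = 0.0345), and its call depended on single bees, as did that of GB44887. The size of the change moved little when single libraries were left out. It ran from -0.75 to -0.64 for GB45222 and from -0.99 to -0.87 for GB44887. With each of the 48 libraries left out in turn, GB44887 passed 36 times and GB45222 33 times. The call of GB44887 was lost without active drone 5 or 12, active worker 3, 6, 7, 11 or 12, inactive drone 7, 9, 10 or 12 or inactive worker 8 (edgeR adjusted p from 0.0503 to 0.0693). GB45222 was lost without active drone 5, 6, 8 or 12, active worker 3, 6, 7, 9, 11 or 12, inactive drone 9, 10 or 12 or inactive worker 8 or 9 (edgeR adjusted p from 0.0527 to 0.0754). Neither passed without colony 2 or 3 (edgeR adjusted p = 0.151 and 0.570 for GB44887, 0.101 and 0.546 for GB45222). GB45222 was lost without colony 1 (edgeR adjusted p = 0.131).

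**Figure D3:**
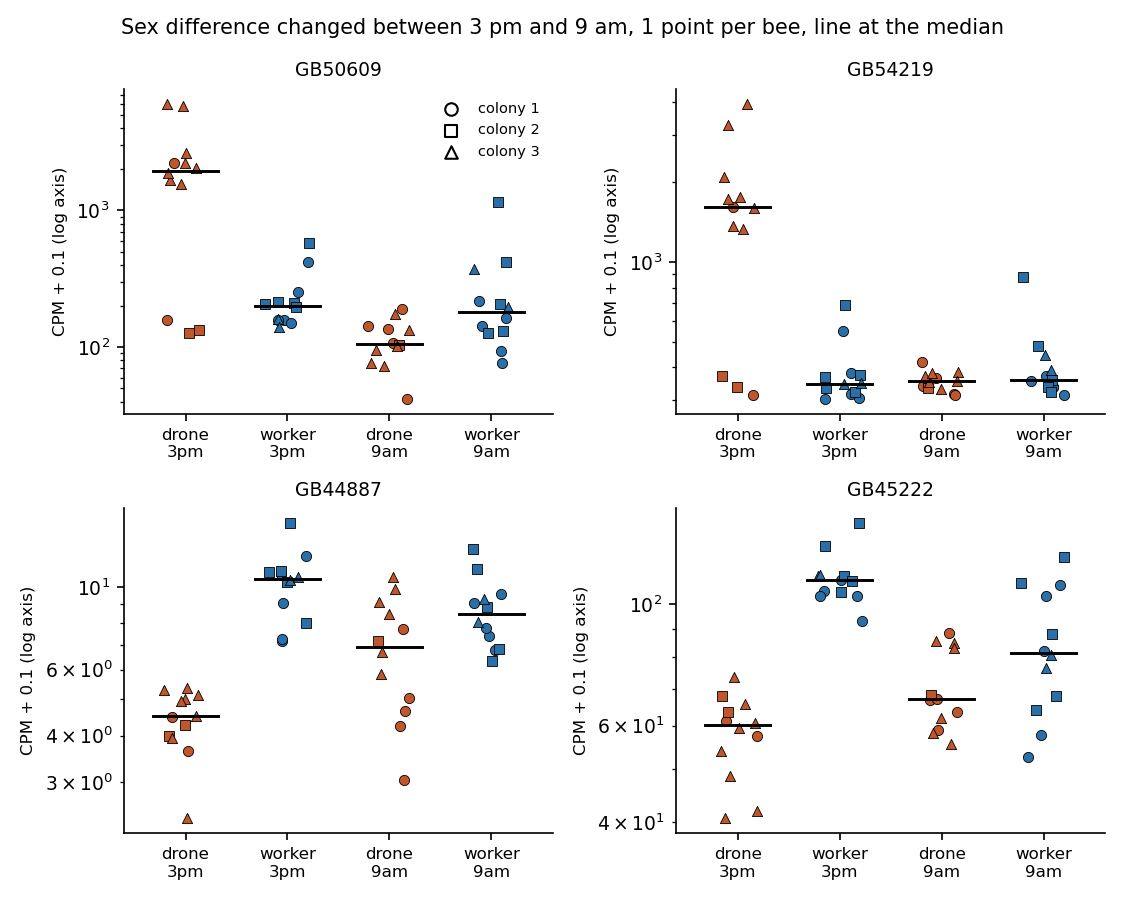
CPM + 0.1 on a log axis for GB50609, GB54219, GB44887 and GB45222 in the 4 groups, 1 point per bee, with colonies as symbols and a line at the group median. In the upper panels 9 of 12 active drones lie above all active workers, and the other 3 lie among them or, for drones 3 and 4 in GB50609, just below them; in the lower panels active drones lie below all active workers, while the morning groups overlap.

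Genes called over all afternoon bees mostly had the same direction in each colony. In a model with 1 mean per sex and colony, 1049 genes were called in colony 1 (9.85%), 869 in colony 2 (8.16%) and 1702 in colony 3 (16%). In all 3 colonies 348 genes were called, 145 higher in drones, 203 higher in workers and 0 with mixed direction. Of the 3726 genes called over all afternoon bees, 3630 (97.4%) had the same sign in each colony, against 39.5% of the genes not called; the same bees gave both figures, so this is a description. Bees of separate colonies allow a comparison without shared animals. Colonies 1 and 2 alone called 2444 of 11103 genes (22%), and colony 3 alone called 1163 of 11414 (10.2%). They shared 750 in the same direction, which is 30.7% of the first list and 64.5% of the second, and 2 genes were called in opposite directions. Of the genes called in colonies 1 and 2, 95.4% had the same sign in colony 3, against 68.5% of the genes not called. Of those called in colony 3, 96.1% had the same sign in colonies 1 and 2, against 71.9%.

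**Figure D4:**
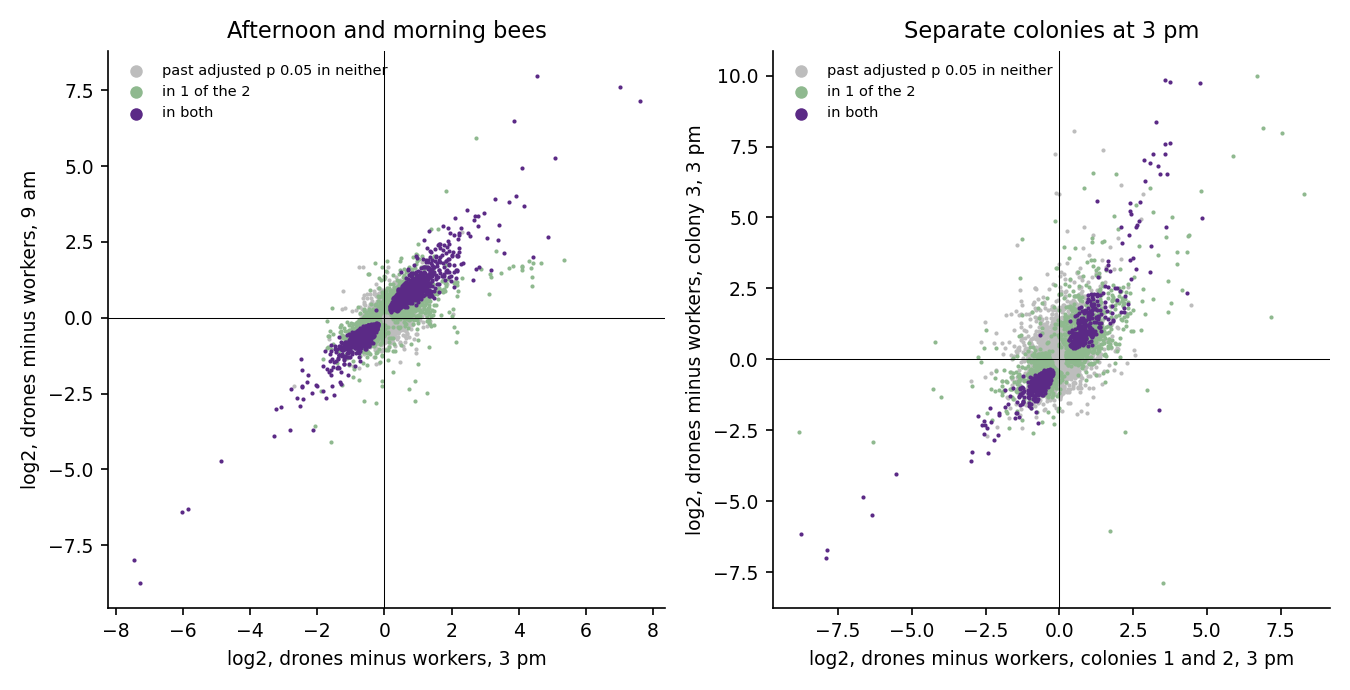
Log2 differences, drones minus workers, in sets of bees that share no animal, 1 point per gene. The left panel sets 9 am (vertical axis) against 3 pm (horizontal axis), with 1787 genes called in both in the same direction, and the right panel sets colony 3 (vertical axis) against colonies 1 and 2 (horizontal axis) at 3 pm, with 750; purple points were called in both sets, green in 1, grey in neither.

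A sex difference that itself differed between colonies was called for 2 of 10648 genes (0.0188%; 614 at an unadjusted p below 0.05), and limma-voom called 0 (539 at an unadjusted p below 0.05). GB40288 had 0 and 0.197 CPM in the drones of colony 1, with 2.72 to 10.5 CPM in the workers of that colony. In colony 2 it had 17.3 and 18.9 CPM in drones against 1.93 to 14.0 CPM in workers, and in colony 3 5.87 to 11.1 CPM in drones against 1.74 and 2.28 CPM in workers. The order of the sexes was therefore opposite among the active bees of colony 1 (sex by colony, edgeR adjusted p = 0.008; 0.0556 without active drone 2). Inactive drones of colony 1 were split, at 0, 0.0829, 0.43, 12.63 and 14.05 CPM. The inactive workers of that colony had 2.23 to 8.46 CPM. GB52205 was high in both workers of colony 3, at 20.7 and 28.2 CPM against 1.89 to 14.0 CPM in the drones, and in drone 3 of colony 2 at 48.8 CPM. The workers of colony 2 had 0.446 to 1.10 CPM and the other drone 5.73 CPM. Its sex by colony test (edgeR adjusted p = 0.016) rested on that drone, with an edgeR adjusted p of 0.381 without it, and was also lost without active worker 7, 8, 9, 10, 11 or 12 (edgeR adjusted p from 0.0505 to 0.106). The count of 2 was 11, 18 and 7 without active drone 1, 2 or 4, 4 without active worker 4, and 1 without active worker 7, 8, 9, 10, 11 or 12.

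The test of spread among bees called few genes. The mean absolute residual of log2 CPM, after sex and colony, had a median over genes of 0.24 in drones and 0.24 in workers, and 51.2% of genes were more variable in drones. A test of the difference in spread (limma on absolute residuals, Benjamini-Hochberg) called 7 of 10648 genes (0.0657%), 5 more variable in drones and 2 in workers. The count was 12 and 11 without active drone 2 or 3, 4 without active drone 9 and 2 without active worker 8. Genes with more than 2 times the residual numbered 468 in drones and 412 in workers, most of them not called.

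The 2 genes given for wider spread in drones each had a low and a high set of drones. GB46318 had 0.351, 0.419 and 1.12 CPM in drones 7, 6 and 5, all of colony 3, and 120 to 534 CPM in the other 9 drones. Active workers had none of these low values and ran from 22.9 to 283 CPM. The mean absolute residual was 3.31 in drones and 0.96 in workers (limma adjusted p = 0.00291), while the difference in level did not pass (log2 difference 1.05 ± 0.74 SE, edgeR adjusted p = 0.284). The test of spread was lost without active drone 5, 6 or 7 (limma adjusted p = 0.0744, 0.135 and 0.148), and without all 3 the difference was -0.31, in the other direction (limma adjusted p = 0.622).

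GB40566 was low in the same 3 drones, at 2.67 to 3.92 CPM, and also in drone 1 of colony 1 with 1.87 CPM and drone 3 of colony 2 with 0.788 CPM. The other 7 drones had 66.9 to 168 CPM, and the workers lay between 24.9 and 84.4 CPM. Of the 12 workers, 7 fell in the gap between the low and the high drones. The residuals were 2.89 in drones and 0.70 in workers (limma adjusted p = 0.00291; 0.436 without drones 5, 6 and 7).

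On the worker side, GB48020 and GB53576 ranged over orders of magnitude in workers and stayed low in drones. GB48020 ran from 0.952 CPM over a median of 40.3 to 1289 CPM in active workers and was at most 2.11 CPM in active drones. GB53576 ran from 6.5 CPM over a median of 139 to 4677 CPM in active workers and was 1.97 to 9.47 CPM in active drones. Workers 1, 3, 5, 7, 8 and 11 were the 6 highest in both genes, and worker 5 was the highest in each. They came from all 3 colonies. The residuals were 3.14 in workers and 1.19 in drones for GB48020 (limma adjusted p = 0.00778) and 2.80 and 0.95 for GB53576 (limma adjusted p = 0.0328). GB48020 was lost without active worker 4, 8 or 12 (limma adjusted p from 0.0799 to 0.114). GB53576 was lost without active drone 5, 6, 7, 9, 10 or 11 or active worker 2, 4, 5, 7, 8 or 12 (limma adjusted p from 0.0558 to 0.202). Both were also higher in workers by level, with log2 differences of -7.37 ± 1.29 and -5.85 ± 1.04 (SE, edgeR adjusted p = 0.000106 and 0.000128), though GB48020 and GB53576 overlapped between the sexes.

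**Figure D5:**
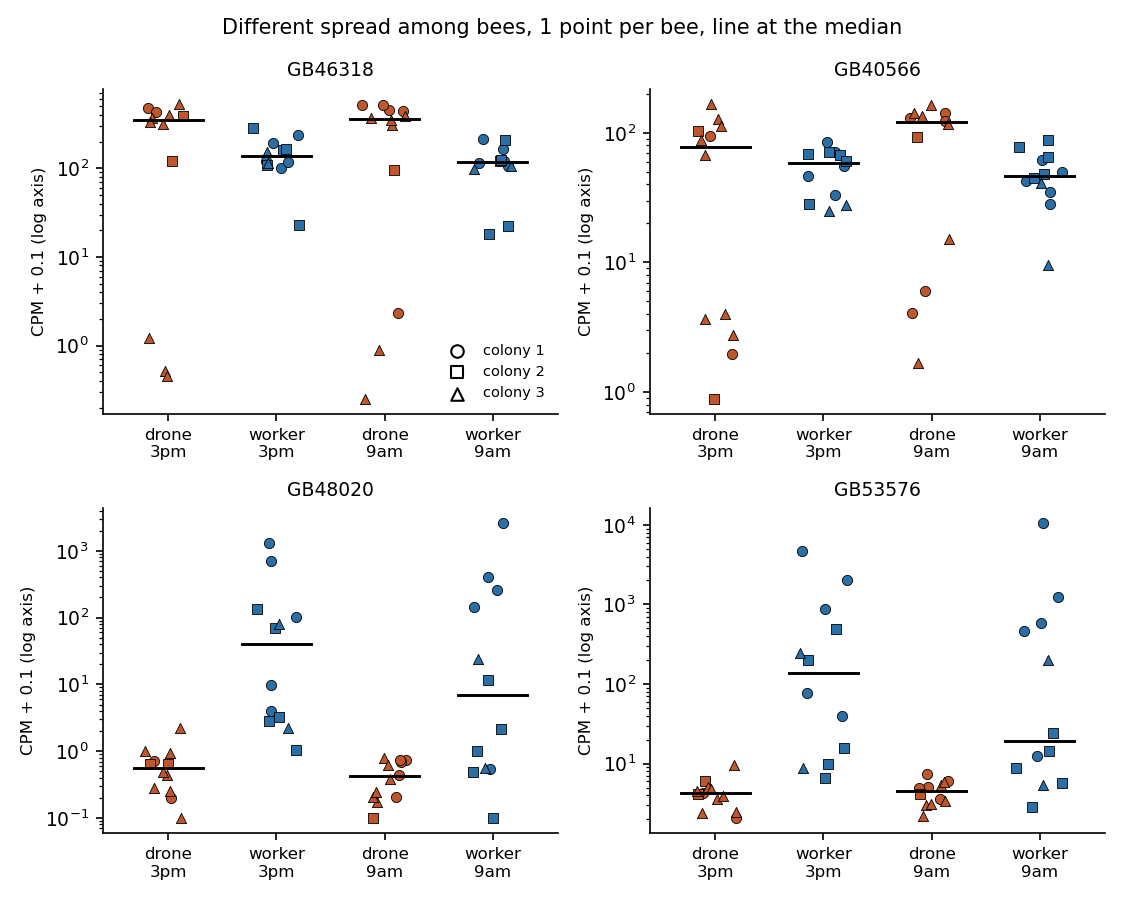
CPM + 0.1 on a log axis for GB46318, GB40566, GB48020 and GB53576 in the 4 groups, 1 point per bee, with colonies as symbols and a line at the group median. Active drones fall into a low and a high set for GB46318 (3 and 9 bees) and GB40566 (5 and 7 bees), and active workers spread from 0.952 to 1289 CPM for GB48020 and from 6.5 to 4677 CPM for GB53576.

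The library names of colony 3 bees carry a letter, W or Y, and no meaning for it is given in the labels. Among the active drones of colony 3, 3 carry W (drones 5, 6 and 7) and 5 carry Y (drones 8 to 12), and both active workers of colony 3 carry Y. Each library also has a pool number. The active W drones were in pools 2 and 6 and the active Y drones in pools 1, 3 and 4. In the inactive drones of colony 3, W was in pools 5 and 6 and Y in pools 1, 2, 3 and 4. Letter and pool therefore cannot be told apart within either set of drones. Over both sets, pool 2 was the only pool with colony 3 drones of both letters. Its active W drone 5 had 1.12 CPM of GB46318 and 91.8 CPM of GB55736. Its inactive Y drone 12 had 348.3 and 5.86 CPM. Letter was not tested against pool. Drones of W and Y were compared after the low values of GB46318 in drones 5, 6 and 7 had been seen. The edgeR quasi-likelihood test called 29 of 10989 genes (0.264%), 18 higher and 11 lower in W, with a median absolute log2 difference of 3.37. The count was 18 without drone 7 or drone 10. In the inactive drones of colony 3, separate bees with 2 of W and 4 of Y, all 29 genes had the same sign, against 58.8% of the genes not called, and 4 of them were among the 5 genes called there (0.0442% of 11305).

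Some of these genes were close to absent in 1 of the letters. GB46318 had 0.351 to 1.12 CPM in the active W drones and 315.5 to 534 CPM in the active Y drones, and in the morning 0.151 and 0.783 CPM in W and 304 to 383 CPM in Y (edgeR adjusted p = 0.000614 in the morning). A low value was not limited to W drones, as inactive drone 4 of colony 1 had 2.25 CPM of GB46318. The other inactive drones of that colony had 442.1 to 518.5 CPM. Because this gene led to the comparison, its afternoon difference is a description. GB49219 had at most 0.112 CPM in active W drones and 145 to 194 CPM in active Y drones (edgeR adjusted p = 3.59e-07), with at most 0.492 CPM in active drones of the other colonies. The active workers did not follow the letter, as both of colony 3, which carry Y, had 0.569 and 0.139 CPM, while workers 1 and 5 of colony 1 had 77.9 and 96.6 CPM. In the morning its Y drones ran from 0 to 200.1 CPM. GB55736 showed the opposite, with 91.8 to 137 CPM in active W drones and 3.4 to 5.19 CPM in active Y drones (log2 difference 4.84 ± 0.20 SE, edgeR adjusted p = 1.29e-06). Its morning values were 146 to 156 CPM in W and 3.93 to 7.5 CPM in Y (edgeR adjusted p = 0.000614). In the active drones of colonies 1 and 2 it had 102 to 156 CPM. Among active workers it was low in both of colony 3, at 5.44 and 5.79 CPM, and in worker 3 of colony 1, at 4.71 CPM, and the other 9 had 75.7 to 135 CPM. GB44100 had 17.3 to 19.2 CPM in active W drones and 1.46 to 2.18 CPM in active Y drones (edgeR adjusted p = 3.78e-05), but 1.59 and 12.4 CPM in the morning W drones (edgeR adjusted p = 1 there).

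Without the 3 W drones, the comparison of active drones with active workers called 3685 genes and 73 passed the 2-fold test, while the test of spread called 1 gene in place of 7. Of the 29 genes, 26 were tested between the sexes and 3 were called, against 35% of all genes tested. The 29 genes were chosen by their differences among the same active drones of colony 3. Such differences widen the spread within drones and make a call between the sexes less likely, so the low share is a description.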

How the data were processed

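Mushroom body libraries of single bees were made with a directional kit, per the labels' protocols. The submitters' processing notes name TopHat2 2.0.10, HTSeq 0.5.4, Trimmomatic 0.30, CASAVA 1.8.2, edgeR 3.4.2 and SAMtools, without saying what each was used for. What the authors deposited are raw counts of reads for each gene; the counting mode and its strand setting were not given in the sources used here, and no coordinates were used. Reads of overlapping or near-identical genes are uncertain. The 5 summary rows, for reads given to no gene, entered neither library sizes nor tests.

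Afternoon libraries were filtered with filterByExpr by group, scaled by TMM and fitted with edgeR 4.0.16 in R 4.3.3 with colony as covariate. The morning bees were fitted alone, and the change between times in 1 model of 48 libraries. CPM values use TMM over 48 libraries. Standard errors are the log2 difference divided by the root of F. Spread used limma 3.58.1 on leverage-corrected absolute residuals of log2 CPM (prior count 2). Library measures used 100000 permutations.

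The tests were also checked on counts simulated from the fits of these data. In these the test of spread missed most genes given added spread, so its short list of calls does not show that spread was alike in the sexes. The test of the change between times recovered 26% of genes given a log2 change of 0.5 and 92% at 2. The sex by colony test recovered 38% at a log2 change of 1 and 96% at 4. The simulations of these 2 tests called 127 and 157 genes, against 29 and 2 in the data. The adjusted p is less strict where more genes differ, so recovery in the data can be lower. The short lists of both tests can therefore leave out changes, above all smaller ones. The number of gene reads limits the precision for weakly expressed genes.

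The members and the rule for genes given by identifier were set with earlier results of these data known. The rule allowed 2 genes per direction and comparison: the largest difference without overlap and with at least 10 CPM in the higher sex, or the lowest p (for spread, at a mean log2 CPM of at least 1). For colonies it allowed 1 per direction of the colony 3 difference. Lists of named genes, fixed in case names could be matched, were not tested. Alternatives were other scalings and filters, DESeq2 1.42.0, limma-voom, other covariates, the replicate number as a block, thinned counts, and the omission of colonies and libraries.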

Additional observations from a re-analysis of the deposited data

Results flagged for a closer look

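The sex difference changed between 3 pm and 9 am in 29 genes, by a test of the change itself over 48 libraries. Among the genes given by identifier, the log2 difference at 3 pm minus that at 9 am was 4.17 for GB50609, 2.10 for GB54219, -0.94 for GB44887 and -0.70 for GB45222. None of these changes passed without colony 3. The sex difference at 3 pm differed between colonies in 2 genes, GB40288 (edgeR adjusted p = 0.008) and GB52205 (edgeR adjusted p = 0.016). With single libraries left out in turn, GB40288 passed in 23 of 24 fits and GB52205 in 17. The tests for a single bee far from its group apply to groups of up to 10 bees and were not run on these groups of 12.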

How the results depend on the processing

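The afternoon sex difference was called in 3726 genes, in 3083 to 3793 when single libraries were left out, and in 2444 without colony 3. The 2-fold test passed 78 genes, 55 to 96 when single libraries were left out, 124 with all 48 libraries, 140 without a covariate, 350 at a fold of 1.5 and 49 without colony 3. The change between times was called in 29 genes, 9 to 39 when single libraries were left out, 65 with DESeq2, 10 with limma-voom, and 18 and 0 without colonies 1 and 3. Its share in favour of drones at 3 pm was 72.4%, against 87.5% with size factors, 85.7% with pool as a covariate, and 88.9% and 86.4% without colonies 1 and 2. The sex by colony test called 2 genes, 1 to 18 when single libraries were left out and 0 with limma-voom. The test of spread called 7 genes, 2 to 12 when single libraries were left out, 20 with residuals from sex alone, 121 without the filter on low counts, 1 with a prior count of 0.5, and 1 without the 3 W drones of colony 3, where the difference in spread of GB46318 was -0.31 (a choice made after the data were seen). With a prior count of 0.5 none of the 4 genes of the spread test passed (limma adjusted p from 0.0507 to 0.189). The difference in library measures, relative to colony means, was -0.0869 percentage points for reads outside genes, against 0.515, and -0.192 for the 100 most abundant genes, against 0.0161, and none of these passed. Values relative to colony means are reduced in size, since each colony mean takes in both sexes. The comparison of W with Y drones called 29 genes, and 18 to 28 when single drones were left out. Over 128 values of the genes given by identifier under other settings, 109 kept direction and call, 18 kept direction without the call and 1 reversed. The 4 leading genes of the sex difference kept direction and call in all 14 values each. Every loss or reversal therefore fell on the genes of the tests of time, colony and spread. The cause of these changes was not tested.

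Drones and workers share replicate numbers, which follow colony in part. Their deviations from group means correlated between -0.182 and 0.182 over 12 pairs, with 3 pairs over 0.1 and 2 of 12 drones closest to the worker of their own number, so the numbers were not taken as pairs. With the replicate block in place of colony, 4380 genes were called, 100 passed the 2-fold test and 27 had a change between times, and GB44887 did not pass (edgeR adjusted p = 0.0909). A block gave no value for spread, since the residuals of a pair are then equal in size.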
